A study of Rattus norvegicus with 6 samples.

Results

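The 9 genes described here encode the plasminogen activators Plau (urokinase) and Plat (tissue plasminogen activator), the urokinase receptor Plaur, the serpins Serpine2, Serpinf1, Serpinh1 and Serpinb9, and the coagulation pair F3 (tissue factor) and Tfpi (tissue factor pathway inhibitor). They were taken by gene symbol from a count table of 33508 genes, and each symbol matched 1 row. RNA-seq was performed on rat bone marrow mesenchymal stem cells (BMSCs) in 2 groups of 3 libraries. The FNDC5 group (BMSCs-OE-FNDC5) carried a lentivirus for FNDC5, the membrane precursor of irisin, and the NC group (BMSCs-OE-NC) carried the vector control virus. Both groups were kept for 24 h under hypoxia and serum deprivation (H/SD), at 1% O2, 94% N2 and 5% CO2 in medium without glucose and serum. By the study's methods the marrow was taken from the hind limbs of male Sprague-Dawley rats aged 2 months, and the cells were passaged before transduction. The promoter that drove FNDC5 is not given in the sources used here, and while the sample titles call the libraries biological replicates, the number of rats or transductions behind each set of 3 is not given either, so the p-values measure the spread between these samples.

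Urokinase and tissue plasminogen activator are serine proteases that cut plasminogen to plasmin, which degrades fibrin and activates other matrix proteases. The urokinase receptor, anchored in the membrane by a lipid, holds urokinase at the cell surface. Most serpins trap a protease after it cuts their reactive loop, and the clade letter in each name groups serpins by sequence. Serpine2 (protease nexin-1) blocks thrombin, urokinase and tissue plasminogen activator, and Serpinb9 blocks granzyme B inside cells. Serpinf1 (pigment epithelium-derived factor) and Serpinh1 (the collagen chaperone HSP47) have the serpin fold but do not act as protease inhibitors. Tissue factor binds factor VIIa and starts coagulation, and Tfpi, a Kunitz-type inhibitor and not a serpin, blocks that complex.

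Total counts were 16640635 to 17965722 per library. The counts of Fndc5 were 17 to 25 in the NC group and 64195 to 65589 in the FNDC5 group. All 8 listed markers of mesenchymal stem cells were tested, and 3 were higher and 5 lower with FNDC5, where 36.9% of all genes tested were higher and 38.8% lower. Their summed level was 5684 to 5761 CPM (counts relative to library size after TMM scaling) under NC and 4223 to 4269.9 CPM under FNDC5. Pdgfrb (mean 1332 to 435 CPM), Col1a1 (2835 to 2232 CPM), Itgb1, Vcam1 and Nt5e were lower. Cd44 (636 to 845 CPM), Thy1 (126 to 308 CPM) and Eng were higher. Of 7 macrophage and monocyte markers in the table, Ptprc, Adgre1 and Cd163 were at 0 in all 6 libraries, while the 7 summed to 98.2 to 103 CPM (NC) and 198 to 206 CPM (FNDC5), nearly all of it Cd14. Of 6 endothelial markers, Kdr, Cdh5 and Tie1 were at 0, and the 6 summed to 51.8 to 55.3 CPM (NC) and 90.6 to 94.0 CPM (FNDC5), most of it Egfl7. The 5 platelet and megakaryocyte markers summed to 0.598 to 0.960 CPM (NC) and 0.861 to 1.84 CPM (FNDC5), with Pf4 and Gp1bb at 0. The labels' extraction text names retinas, and 4 retinal markers summed to at most 0.101 CPM in any library.

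Under H/SD, FNDC5 overexpression went with more transcript of Plau, Plaur and Serpinb9 and with less of Plat, Tfpi, F3 and Serpinf1. All 9 genes passed the filter on low counts. At an adjusted p under 0.05 (edgeR's quasi-likelihood test, Benjamini-Hochberg over 12104 genes), 5 of the 9 were higher and 4 were lower, where 36.9% of all genes tested were higher and 38.8% lower. With an absolute log2 fold change over 1 as well, 0 members were higher and 3 (F3, Plat and Tfpi) were lower, where 9.84% of all genes were higher and 17.5% lower. In all 9 genes the 3 libraries of one group lay above the 3 of the other, as in 78.3% of all genes tested. The median log2 fold change of FNDC5 over NC was 0.09 over the 9 genes and -0.04 over all genes, and the median of its absolute size was 0.94 and 0.62. In BMSCs as a bulk sample, fewer cells that express a gene and less RNA of it per cell cannot be told apart.

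The rises and falls depend in part on how libraries are scaled. Levels here are scaled by TMM (edgeR's trimmed mean of M values), with factors of 1.13 to 1.14 in the NC group and 0.877 to 0.882 in the FNDC5 group. Scaling by library size only shifted the log2 fold change of the median gene by -0.37, and lower genes then made up 87.4% of those past both thresholds, against 64.1% with TMM. That share was 44.9% on log2(FPKM + 1). The small rises of Serpine2 and Serpinh1 turned into falls with library size only and were lost with upper-quartile scaling, whereas the other 7 members kept their direction and their call under all 16 alternatives run.

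Per kilobase of transcript, the 9 genes ranged widely in RPKM (TMM-scaled CPM per kilobase of the table's gene length). Serpine2 stood highest in both groups, with 2057 ± 38.2 RPKM (SD, n = 3) in the NC group and 2202 ± 18.5 RPKM (SD, n = 3) in the FNDC5 group. Serpinh1 followed at 726 ± 4.87 RPKM (SD, n = 3) and 772 ± 4.67 RPKM (SD, n = 3). Serpinf1 came next at 300.1 ± 10.8 RPKM (SD, n = 3) in the NC group, ahead of Plaur at 236 ± 4.69 RPKM (SD, n = 3).

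In the FNDC5 group this order was reversed, with Plaur at 461 ± 16 RPKM (SD, n = 3) and Serpinf1 at 255 ± 4.04 RPKM (SD, n = 3). Plat and Serpinb9 changed places as well, from 104 ± 4.78 and 83.2 ± 1.64 RPKM (SD, n = 3) in the NC group to 33.6 ± 2.47 and 131 ± 3.12 RPKM (SD, n = 3). Plau, Tfpi and F3 were the lowest 3 in both groups, with 5.07, 3.60 and 2.78 RPKM in the NC group and 9.74, 1.57 and 0.491 RPKM in the FNDC5 group. No neighbours in either order overlapped between their libraries, and the closest pair was Plat and Serpinb9 in the NC group, at a ratio of 1.25.

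**Figure D1:**
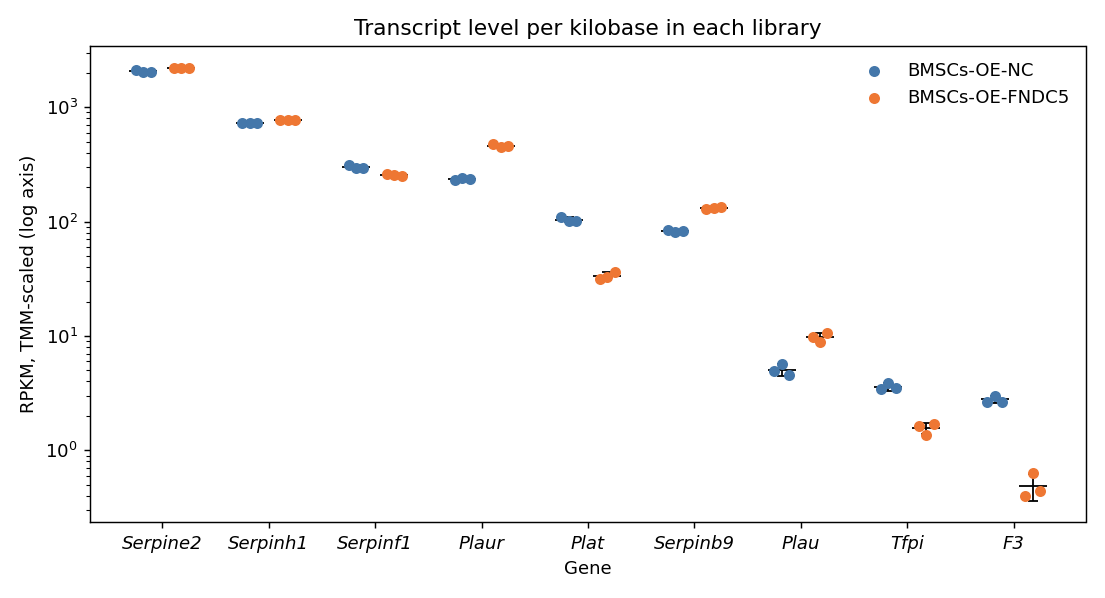
Level of each of the 9 genes in each library, in TMM-scaled RPKM on a log axis, with genes ordered by their mean in the NC group. Points are libraries (blue the NC group, orange the FNDC5 group), black lines give the mean and SD of 3, and Plaur passes from 236 to 461 RPKM while Plat passes from 104 to 33.6 RPKM.

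The activators moved in opposite directions. Plau (ENSRNOG00000010516) lies on chromosome 15 from 3644769 to 3650819 on the minus strand in the table's coordinates, whose rat build is not given in the sources used here, and 0 other genes of the table overlap any of the 9. Its levels were 9.28, 10.7 and 8.59 CPM in the NC group and 18.3, 16.6 and 19.9 CPM in the FNDC5 group. Every library of the FNDC5 group was above every library of the NC group, and Plau rose with a log2 fold change of 0.94 (edgeR, standard error 0.12, adjusted p = 2.4e-05).

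Plat (ENSRNOG00000019018, chromosome 16 from 74098260 to 74122889, minus strand) had 277, 255 and 258 CPM in the NC group and 80.6, 83.3 and 92.5 CPM in the FNDC5 group. The groups were far apart, and Plat fell with a log2 fold change of -1.62 (edgeR, SE 0.052, adjusted p = 2.6e-10), a level 3.08-fold lower. Of all genes tested, 6.49% had a lower log2 fold change.

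A ratio of the counts of 2 genes in the same library does not depend on scaling. Plat had 29.9, 23.9 and 30.1 counts for each count of Plau in the NC group and 4.41, 5.02 and 4.64 in the FNDC5 group. The ratio was thus 5.93-fold lower in the FNDC5 group, without overlap (two-sided exact permutation test, p = 0.1, which 3 against 3 libraries cannot go below, and 0.12 adjusted over the 6 ratios compared). Per kilobase, Plat stayed above Plau in every library, by 17.6 to 22.2 times in the NC group and by 3.26 to 3.71 times in the FNDC5 group.

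The receptor Plaur (ENSRNOG00000037931, chromosome 1 from 81328183 to 81344708, plus strand) had 236, 245 and 244 CPM in the NC group and 488, 456 and 473 CPM in the FNDC5 group. All 3 libraries with FNDC5 were higher, with a log2 fold change of 0.97 (edgeR, SE 0.032, adjusted p = 3.2e-10). Plau and Plaur thus had folds of 1.92 and 1.95 with TMM, and log2 fold changes of 0.57 and 0.60 with library size only. The ratio of Plau to Plaur counts was 0.0393, 0.0435 and 0.0352 in the NC group and 0.0374, 0.0364 and 0.0422 in the FNDC5 group. These ranges overlapped, and the difference in the mean log2 ratio was -0.02 with an SD of 0.15 and 0.11 within the groups (exact permutation test, two-sided p = 0.9).

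Plaur has the shortest transcript of the 9 genes, at 1025 bases. In another fit a lowess curve of log2 count against log2 gene length was taken out of each library, in place of library size and TMM. It therefore changed the scaling as well as the length trend, and moved the median of all genes by 0.13. In that fit Plaur stood at 0.58 and Plau, at 1875 bases, at 0.90. Cd14 and Egfl7, the markers of other cell types with the highest levels, rose in the same libraries, and their part in the rises of Plau and Plaur was not tested.

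**Figure D2:**
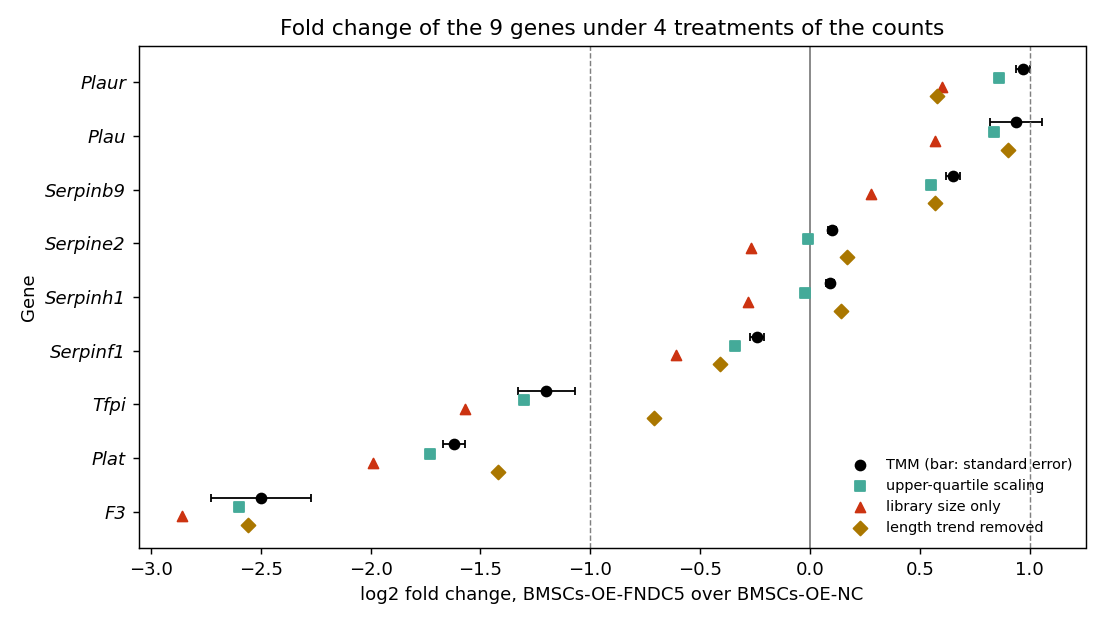
Log2 fold change of FNDC5 over NC for each gene under 4 treatments of the counts, with dashed lines at -1 and 1. Black circles with standard error bars give TMM scaling, squares upper-quartile scaling, triangles library size only and diamonds the fit with the length trend removed. Serpine2 and Serpinh1 lie at 0.10 and 0.09 with TMM, at -0.01 and -0.02 under upper-quartile scaling and at -0.27 and -0.28 under library size only.

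Since the study examined the transcription factor Sp1, which binds GC boxes, the 250 bases before the transcription start were searched for the GC box GGGCGG, the AP-1 site TGANTCA and the TATA box TATAAA on both strands. RefSeq promoters of build GRCr8 matched 7 of the 9 genes by symbol, in 8 windows, 2 of them for Tfpi; Plat and F3 had no entry. The windows of Plau, of its receptor gene Plaur and of Serpine2, the most abundant member, are shown because they hold the most matches and the single AP-1 match. Capitals mark the matches, 5′ to 3′ on the strand of the gene.
Plau, chr15:3511988-3512237, minus strand: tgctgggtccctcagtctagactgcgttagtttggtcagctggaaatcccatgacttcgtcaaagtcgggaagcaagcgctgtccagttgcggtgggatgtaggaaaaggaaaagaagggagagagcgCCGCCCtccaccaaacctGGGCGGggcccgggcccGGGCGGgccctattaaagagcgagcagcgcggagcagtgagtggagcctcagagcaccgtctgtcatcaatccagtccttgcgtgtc
Plaur, chr1:89181113-89181362, plus strand: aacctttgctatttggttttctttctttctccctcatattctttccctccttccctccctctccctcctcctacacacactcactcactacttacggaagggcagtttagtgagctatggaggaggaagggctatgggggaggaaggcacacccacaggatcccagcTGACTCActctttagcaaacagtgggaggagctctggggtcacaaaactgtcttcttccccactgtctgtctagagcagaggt
Serpine2, chr9:88637203-88637452, minus strand: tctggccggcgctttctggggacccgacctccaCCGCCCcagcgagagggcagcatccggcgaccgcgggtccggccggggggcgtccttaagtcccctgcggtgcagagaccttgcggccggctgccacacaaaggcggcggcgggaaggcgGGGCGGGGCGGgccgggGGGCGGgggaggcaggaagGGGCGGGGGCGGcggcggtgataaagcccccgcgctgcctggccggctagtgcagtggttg

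The window of Plau held 3 GC boxes, with the first bases 122, 104 and 87 bases before the start, a number reached or passed by 7.41% of 33469 windows of the same length. That of Plaur held 0 GC boxes and 1 AP-1 site 83 to 77 bases before the start, and 6.34% of windows hold an AP-1 site. The Serpine2 window held 6 GC boxes, some of them overlapping, which 0.825% of windows reach, in a sequence of 76.8% G and C. Serpinh1 and the second Tfpi window held 1 GC box each, where 30.5% of windows hold at least 1, and those of Serpinf1, Serpinb9 and the other Tfpi start held 0 matches to any of the 3 motifs. The TATA box, present in 12.9% of windows, was found in 0 of the 8. A match is a run of letters and not a binding site.

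Among the serpins, Serpine2 and Serpinh1 differed little between groups, Serpinf1 was somewhat lower and Serpinb9 was higher. Serpine2 (ENSRNOG00000015461, chromosome 9 from 85560863 to 85626094, minus strand) had 4499.8, 4337 and 4405 CPM in the NC group and 4715, 4771 and 4694 CPM in the FNDC5 group. The groups did not overlap, but the gap was small, with a log2 fold change of 0.10 (edgeR, SE 0.017, adjusted p = 3.0e-04). Its raw counts ran the other way, at 87016 to 91598 in the NC group and 69954 to 71286 in the FNDC5 group. Scaled by library size only, Serpine2 had a log2 fold change of -0.27 (edgeR, adjusted p = 4.7e-08), where the median over all genes was -0.41. Under upper-quartile scaling Serpine2 had -0.01 (edgeR, adjusted p = 0.76), where that median was -0.14.

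The ratios of Serpine2 to the activators changed more than Serpine2 itself. Its log2 fold change was 0.10, beside -1.62 for Plat and 0.94 for Plau. For each count of Plat there were 16.2, 17 and 17.1 counts of Serpine2 in the NC group and 58.5, 57.3 and 50.7 in the FNDC5 group, a ratio 3.31-fold higher. For each count of Plau there were 485, 407 and 513 counts of Serpine2 in the NC group and 258, 288 and 235 in the FNDC5 group, a ratio 1.79-fold lower. Both ratios separated the groups without overlap (exact permutation test, two-sided p = 0.1, adjusted p = 0.12). The inhibitor transcript therefore gained on Plat and lost ground to Plau in each of the 3 libraries of the FNDC5 group.

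**Figure D3:**
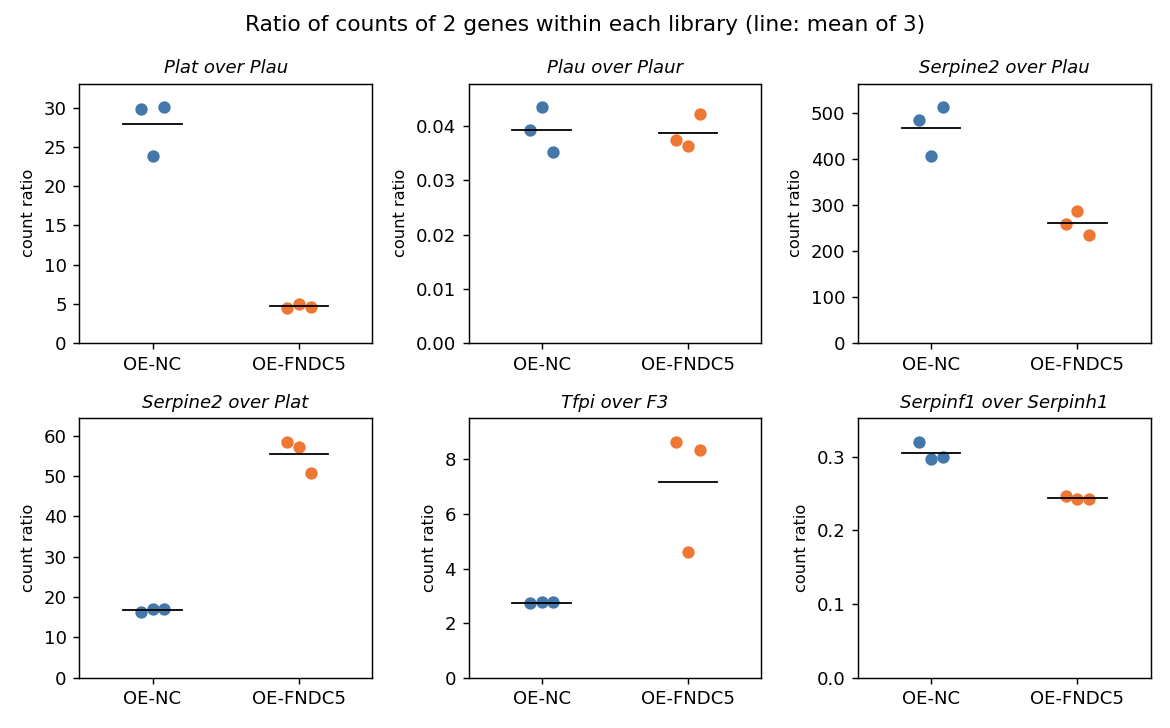
Ratio of the counts of 2 genes within each library, with 1 panel per pair, a linear axis from 0 and a line at the mean of 3 libraries. The ratio of Plat to Plau passes from 23.9 to 30.1 in the NC group to 4.41 to 5.02 in the FNDC5 group, while that of Plau to Plaur overlaps between the groups.

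Serpinh1 (ENSRNOG00000016831, chromosome 1 from 164301010 to 164308317, minus strand), needed for the folding of procollagen in the endoplasmic reticulum, had 1514, 1532 and 1515 CPM in the NC group and 1623, 1619 and 1604 CPM in the FNDC5 group. Its libraries varied least of the 9 genes, with a coefficient of variation of 0.671% and 0.605%, and its log2 fold change was 0.09 (edgeR, SE 0.018, adjusted p = 0.0012). This rise too was lost with upper-quartile scaling (-0.02, adjusted p = 0.43) and turned with library size only (-0.28, adjusted p = 9.7e-08).

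Serpinf1 (ENSRNOG00000003172, chromosome 10 from 62241756 to 62254287, minus strand), a secreted factor that restrains vessel growth, had 484, 456 and 454 CPM in the NC group and 401, 394 and 388 CPM in the FNDC5 group. It was lower in every library with FNDC5, with a log2 fold change of -0.24 (edgeR, SE 0.031, adjusted p = 3.2e-05). The size of this fall was -0.61 scaled by library size only and -0.41 with the length trend removed. Set against Serpinh1 in the same library, Serpinf1 went from 0.320, 0.297 and 0.3 counts per count of Serpinh1 to 0.247, 0.243 and 0.242, a ratio 1.25-fold lower (exact permutation test, two-sided p = 0.1, adjusted p = 0.12).

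Serpinb9 (ENSRNOG00000033772, chromosome 17 from 32650441 to 32661865, minus strand) had 152, 146 and 148 CPM in the NC group and 228, 234 and 239.5 CPM in the FNDC5 group. The groups were well separated, with a log2 fold change of 0.65 (edgeR, SE 0.032, adjusted p = 7.0e-09), and Serpinb9 kept a rise of 0.28 under library size only. Gzmb, which encodes the protease it inhibits, had 1 count in 1 of the 6 libraries and 0 in the others. Rats carry several genes close in sequence to Serpinb9. The table lists Serpinb9d at 0 in all 6 libraries, and since the treatment of reads that fit several genes is not given in the sources used here, the count may hold reads of such copies.

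The tissue factor pair fell together, F3 more than Tfpi. F3 (ENSRNOG00000011800, chromosome 2 from 225310624 to 225322272, plus strand) had 4.86, 5.48 and 4.85 CPM in the NC group and 0.728, 1.16 and 0.795 CPM in the FNDC5 group. No library of the groups overlapped, and F3 fell with a log2 fold change of -2.50 (edgeR, SE 0.23, adjusted p = 1.5e-06), a level 5.64-fold lower. Of all genes tested, 1.35% had a lower log2 fold change. The level in the FNDC5 group rests on 11, 17 and 12 counts, whose exact Poisson 95% intervals run from 5.49 to 19.7, from 9.90 to 27.2 and from 6.20 to 21.0 counts and cover counting error only, while the NC group had 96 to 110 counts.

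Tfpi (ENSRNOG00000005039, chromosome 3 from 71852744 to 71893618, minus strand) had 13.2, 15.2 and 13.5 CPM in the NC group and 6.28, 5.32 and 6.62 CPM in the FNDC5 group. It was lower in each library with FNDC5, with a log2 fold change of -1.20 (edgeR, SE 0.13, adjusted p = 6.4e-06). Tfpi has the longest transcript of the 9, at 3870 bases, and with the length trend removed its log2 fold change was -0.71, no longer past the fold threshold, whereas that of F3 was -2.56. On log2(FPKM + 1), where low genes are damped, Tfpi stood at -0.82, also short of the threshold, and F3 at -1.33.

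The ratio of Tfpi to F3 counts was 2.72, 2.76 and 2.78 in the NC group and 8.64, 4.59 and 8.33 in the FNDC5 group. It was 2.51-fold higher in the FNDC5 group without overlap (exact permutation test, two-sided p = 0.1, adjusted p = 0.12), and the second library of that group, with the 17 counts of F3, stood apart from the other two. Without it the difference in the mean log2 ratio was 1.62, against 1.33 with all libraries.

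Around the members, genes of the plasminogen system moved in both directions. Of 29 listed genes 28 were in the table, 18 were tested, 5 rose, 10 fell and 3 did not pass, with a median log2 fold change of -0.33 against -0.04 over all genes. Over all genes tested, 36.9% were higher and 38.8% lower. Plg, the gene of plasminogen itself, had 0 counts in all 6 libraries. Of the genes for plasminogen-binding surface proteins, Anxa2 (annexin A2) and Eno1 (enolase 1, best known as a glycolytic enzyme) rose. S100a10 rose as well (log2 fold change 1.11, edgeR adjusted p = 1.9e-10), while Plgrkt, a plasminogen receptor, fell (-0.50, edgeR adjusted p = 0.035). Anxa2 went from 927 ± 18.6 to 1879.6 ± 21.4 CPM (SD, n = 3; log2 fold change 1.02, edgeR adjusted p = 1.3e-11) and Eno1 from 3221 ± 48.5 to 5580.3 ± 17.4 CPM (SD, n = 3; log2 fold change 0.79, edgeR adjusted p = 7.7e-12). Mmp14, a membrane-bound metalloprotease, fell from 878 ± 22.5 to 334 ± 6.02 CPM (SD, n = 3; log2 fold change -1.39, edgeR adjusted p = 7.4e-12). Thbs1, the matrix protein thrombospondin 1, fell from 1419 ± 62.2 to 513 ± 11.7 CPM (SD, n = 3; log2 fold change -1.47, edgeR adjusted p = 1.8e-11). With the length trend removed 8 of the 18 rose and 8 fell, where 4925 of all 12104 genes tested rose and 3730 fell.

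Of 27 genes of the tissue factor and thrombin list, 9 were tested, 4 rose, 4 fell and 1 did not pass (median log2 fold change -0.09). The shares over all genes tested were 36.9% higher and 38.8% lower. F2r, the thrombin receptor PAR1, fell from 234 ± 6.91 to 42.2 ± 1.48 CPM (SD, n = 3; log2 fold change -2.47, edgeR adjusted p = 1.6e-12), close in size to that of F3. Gas6, a ligand of the TAM receptors, rose from 88.4 ± 2.89 to 375 ± 4.79 CPM (SD, n = 3; log2 fold change 2.09, edgeR adjusted p = 1.3e-12). Anxa5, which binds phosphatidylserine, rose by a log2 fold change of 0.61 (adjusted p = 1.1e-09 from edgeR). Procr, the endothelial protein C receptor, rose from 7.76 ± 0.953 to 24.7 ± 1.07 CPM (SD, n = 3; log2 fold change 1.67, adjusted p = 9.4e-08 from edgeR). Of the 27 genes, 11 had 0 counts in all libraries.

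Of 36 further serpin genes of the table, 23 had 0 counts in every library and 5 were tested, with 4 higher and 1 lower (median log2 fold change 1.03). The shares over all genes tested were 36.9% higher and 38.8% lower. The 3 tested of clade B, whose proteins mostly stay inside the cell, rose like Serpinb9. These were Serpinb1a from 53.7 ± 0.610 to 239.8 ± 8.90 CPM (SD, n = 3; log2 fold change 2.16), Serpinb6a (1.03) and Serpinb6b (1.46), with adjusted p = 2.7e-12, 5.1e-10 and 3.1e-05 from edgeR. Serpinb6a and Serpinb6b are close copies of each other, so that reads could be split between them. Serpina3n rose (0.59, adjusted p = 4.8e-06 from edgeR), at 0.22 with library size only and 1.47 with the length trend removed. Its row has 7022 bases and spans chromosome 6 from 127941526 to 128080889, a stretch that holds Serpina3c (0 counts in every library). Whether those bases belong to a single gene was not tested.

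Serping1, the complement C1 inhibitor, which also blocks kallikrein, fell from 293 ± 9.15 to 75.1 ± 3.52 CPM (SD, n = 3; log2 fold change -1.96, adjusted p = 1.0e-11 from edgeR).

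**Figure D4:**
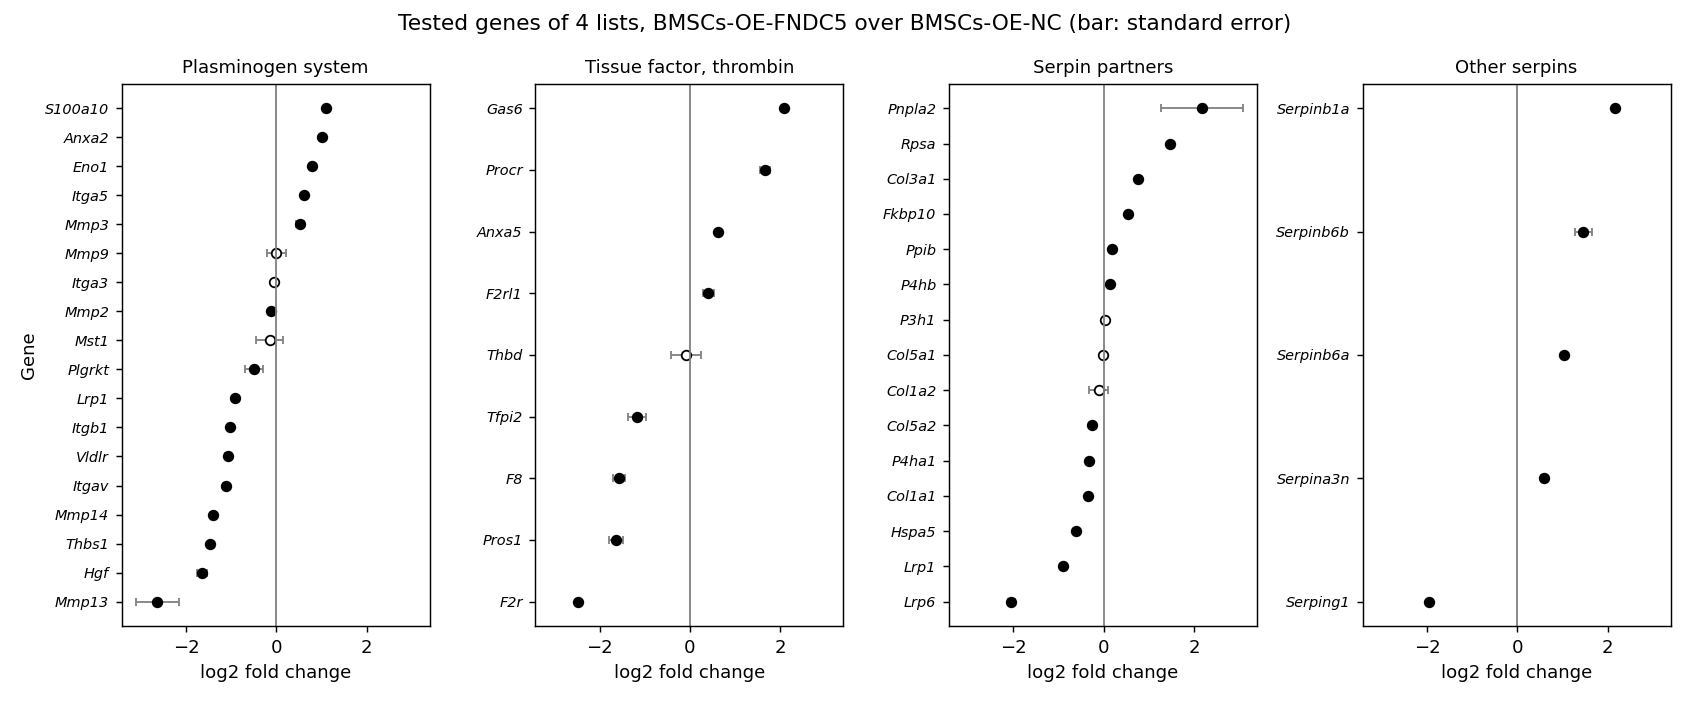
Log2 fold change of FNDC5 over NC for the tested genes in 4 lists around the members, with standard error bars. Filled circles passed at an adjusted p under 0.05 and open circles did not, and F2r at -2.47 and Serpinb1a at 2.16 are among the farthest from 0.

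Of 18 genes whose products meet the member serpins (collagens and their folding enzymes for Serpinh1, receptors for Serpinf1 and Serpine2, and proteases), 15 were tested, 6 rose, 6 fell and 3 did not pass. The shares over all genes tested were 36.9% higher and 38.8% lower. Of the 5 collagen chains in the list, clients of Serpinh1, Col3a1 rose (log2 fold change 0.77, adjusted p = 3.0e-11 from edgeR), at 0.40 with library size only and 1.40 with the length trend removed. Col1a1 (-0.34) and Col5a2 (-0.26) fell, with adjusted p = 5.2e-08 and 7.8e-07 from edgeR, and Col1a2 (-0.11) and Col5a1 (-0.01) did not pass. The counts of Col1a2 varied within groups, at 12102 to 22731 (NC) and 11276 to 16079 (FNDC5), with a standard error of 0.21. Hspa5, the main chaperone of the endoplasmic reticulum, fell (-0.62, adjusted p = 4.6e-10 from edgeR). Rpsa, a ribosomal protein also described as a laminin receptor that binds Serpinf1, rose (1.47, adjusted p = 2.0e-13 from edgeR), and Lrp6, a Wnt coreceptor that binds Serpinf1, fell (-2.04, adjusted p = 2.6e-09 from edgeR). The call of Pnpla2, a lipase that Serpinf1 binds, came from 1 library, with 16, 221 and 12 counts in the FNDC5 group and 37, 16 and 22 in the NC group. Scaled by library size only, 3 of the 15 rose and 10 fell, where 2659 of all 12104 genes tested rose and 6709 fell. With the length trend removed 10 of the 15 rose and 4 fell, where 4925 of all genes rose and 3730 fell.

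By the smallest root mean square difference of centred log2 CPM over the 6 libraries, the genes nearest to Plau were Hand2, Psmg4 and Def6 (0.035, 0.052 and 0.064). Those nearest to Plat were Slc30a4, Ahr and Eif4g2 (0.036, 0.038 and 0.040), and those nearest to Serpine2 were Tmod1, Mrpl51 and Sbds (0.0098, 0.013 and 0.014). Ahr, the aryl hydrocarbon receptor, had a log2 fold change of -1.66, beside -1.62 for Plat. This closeness follows from picking genes by their likeness over the same libraries.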

How the data were processed

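RNA-seq was performed by the study on 6 libraries, 3 per group (BMSCs-OE-FNDC5, BMSCs-OE-NC). The authors deposited whole-number gene counts and FPKM values, each for 33508 genes. Tools named in the submitters' processing notes are, for alignment, HISAT2 2.1.0, Bowtie2 2.2.3 and TopHat2, for counting HTSeq 0.6.0, and CASAVA and DESeq2. They name the mouse build mm10, although the identifiers are rat. The steps, the rat build and the strand setting are not given in the sources used here.

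Counts were filtered with filterByExpr (minimum count 10, minimum total 15), scaled by TMM and compared with glmQLFit and glmQLFTest in edgeR 4.0.16 (R 4.3.3), with group as the only term. The standard error is the unshrunk log2 fold change divided by the root of the F statistic. Of the 33508 genes 12104 were tested. Members, lists and alternatives were chosen with earlier results of these data known. Named by rule were all members, the 4 genes of each list with the smallest p and every tested serpin of the list. The 3 genes nearest in log2 CPM (prior 0.5) to Plau, Plat and Serpine2 were also named by rule. Gzmb, Pnpla2, Col1a1, Col1a2, Col5a1, Col5a2, S100a10, Plgrkt, Serpinb9d, Serpina3c, Cd14 and Egfl7 were named after their values were seen, as were the markers of mesenchymal stem cells. 1 listed gene is not reported here and was left out of the counts. Alternatives used DESeq2 1.42.0, limma 3.58.1 (voom, and log2(FPKM + 1) or log2(FPKM + 0.1)), other scalings, no filter and a replicate block. Further ones used a lowess offset for gene length (span 0.3), which replaced library size and TMM, or left out each library in turn. The procedure was tested on simulated counts. Motifs were searched and figures drawn in Python 3.11.15 with matplotlib 3.10.9.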

Additional observations from a re-analysis of the deposited data

How the results depend on the processing

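Of the 144 log2 fold changes of the 9 members under 16 alternatives, 140 kept their direction and their side of an adjusted p of 0.05. The other 4 were reversals, of Serpine2 to -0.27 and Serpinh1 to -0.28 with library size only and to -0.01 and -0.02 with upper-quartile scaling, and 3 members instead of 5 were then higher in either fit. Upper-quartile scaling moved the median of all genes by -0.10. Without BMSCs-OE-FNDC5 replicate 2 or without BMSCs-OE-NC replicate 2, Plau passed the fold threshold (1.01 and 1.02), so that 0 to 1 members were higher at both thresholds when a library was left out. With the length trend removed or on log2(FPKM + 1), Tfpi missed the fold threshold and 2 members instead of 3 were lower at both. Of the list genes named by rule, all 272 values under the 16 alternatives were unchanged in call and direction, though not in size. Since the rule took the 4 smallest p of each list from the same data, this stability follows in part from the choice. It does not extend to the rest of the lists.

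The log2 ratio of Plau to Plaur, -0.02, ranged from -0.10 to 0.05 when a library was left out and was -0.14 on log2(FPKM + 1). The fit without the length trend was not run for ratios, and in it Plau stood at 0.90 and Plaur at 0.58. The other 5 ratios kept their sign in each of 9 alternatives. The Tfpi to F3 ratio was 0.50 on log2(FPKM + 1), where the pseudocount exceeds the level of F3 in the FNDC5 group. Lists moved as follows: 8 plasminogen system genes higher without the length trend, 3 other serpins lower with DESeq2 or no filter, and, of the serpin partners, 10 higher without the length trend and 3 higher and 10 lower with library size only. The whole table moved too, to 4925 genes higher and 3730 lower without the length trend. With library size only it had 2659 higher and 6709 lower. Deviations from the group means showed no pairing by replicate number (correlations of 0.0211, -0.0251 and -0.00473 for the same number). Such correlations cannot show whether rats or cultures were shared. The replicate block left each member's call, with Plat at -1.63. It gave 4399 genes higher and 4628 lower over the table, against 4469 and 4692 without it. Precision is limited by 3 libraries per group and, for F3, by 11 to 17 counts.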
